A study of Terfezia claveryi
Helianthemum almeriense and Terfezia claveryi with 9 samples.

Results

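In the desert truffle Terfezia claveryi, 360 of 12765 gene models were abundant and took nearly the same share of fungal reads in drought-stressed mycorrhizal roots, well-watered mycorrhizal roots and cultured mycelium. They were chosen by their measured levels. Each count was scaled to the total gene reads of its library, given as CPM, and averaged over the 3 libraries of each group. A member had a mean of at least 100 CPM in every group, and its highest group mean was at most 1.5 times its lowest. The even group means are therefore what defined the set and are described without a test.

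Terfezia claveryi is an ascomycete that lives on the roots of rockroses (Helianthemum) in dry soils and fruits below ground. Its host supplies carbon, and the fungus grows as free mycelium, around and between root cells or inside them, depending on conditions. In fungi generally, genes that keep an even share of the messenger RNA across such states include many that serve translation, the cytoskeleton, protein turnover and energy metabolism. Genes of that kind are commonly used as internal references in quantitative PCR. The deposited files give JGI identifiers (Tercla1) without gene names or products, so the function and position of each member are not given here and lists of gene functions could not be applied.

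Drought-stressed roots came from Helianthemum almeriense plants inoculated with truffle spores, whose soil was dried to 40% moisture after 3 months and kept there until the water potential of the shoots fell under -2 MPa. Well-watered roots came from plants inoculated in the same way and kept at a soil moisture above 75%. Both root groups were secondary and tertiary roots, so RNA of the plant was present beside that of the fungus. Cultures were the single strain T7, shaken at 75 rpm in the dark at 23 °C for 3 months, whereas the fungus in the roots grew from spores. Each group had 3 libraries, which the study names as biological replicates.

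Total gene reads ran from 3493361 to 5470044 in drought roots, from 869998 to 1635015 in well-watered roots and from 15855363 to 31854784 in cultures. The least abundant member in any single library had 47 reads, in well-watered replicate 1. In bulk RNA, fewer fungal cells and less RNA per cell cannot be told apart, and CPM is a share of the fungal reads, so an even CPM does not show an even amount per cell or per root. Drought replicate 2 and well-watered replicate 1 stood apart from the other replicates of their groups, and the spread, correlations, choice of members and calls are also given without them.

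Abundance in all 3 groups was the first condition, and 1281 gene models met it. Of these, 360 (28.1%) stayed within 1.5-fold, 769 within 2-fold and 1148 within 4-fold, while 133 went beyond 4-fold. The largest ratio among the 1281 was 35.7. Within the 360, the ratio of the highest to the lowest group mean had a median of 1.32, against 1.81 over all 1281. In 121 members the highest group mean was at most 25% above the lowest, and 28 stayed within 1.1-fold. The set has no gap at its edge, since the other 239 members lay between that and 1.5-fold.

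**Figure D1:**
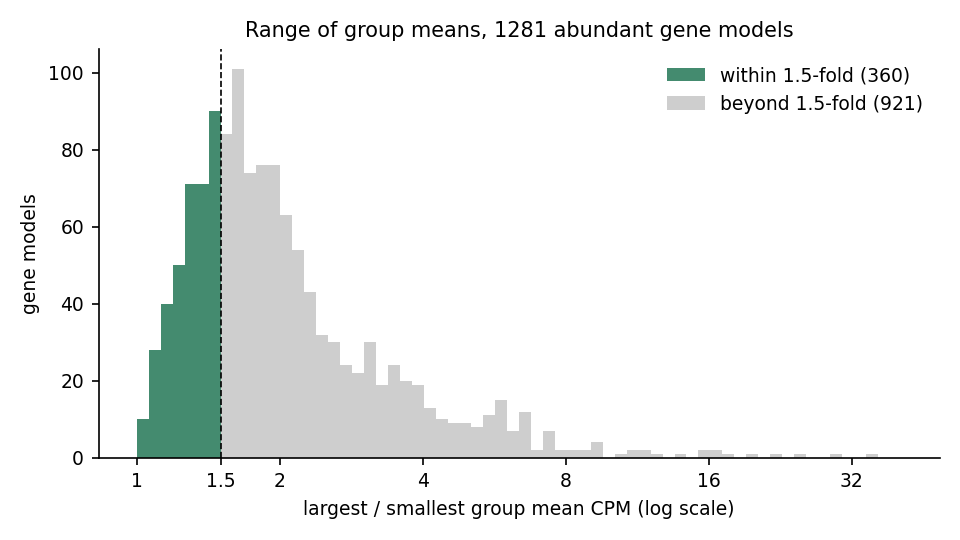
Histogram of the ratio of the largest to the smallest group mean CPM (x axis, log scale) for the 1281 gene models with at least 100 CPM in every group (y axis, number of gene models). The 360 members are left of the dashed line at 1.5, and the 921 other gene models run on from it without a break.

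The members close to each limit show how narrowly they were included. Just inside the fold limit, jgi|Tercla1|1128442| (3826 bases) averaged 642 ± 64.1 CPM in drought roots, 538 ± 115 in well-watered roots and 807 ± 86.3 in cultures (SD, n = 3 each), a ratio that rounds to 1.5. Also just inside was jgi|Tercla1|1217116| (1975 bases), at 151, 150 and 153 CPM in drought roots, 131, 155 and 177 in well-watered roots and 99.1, 106 and 104 in cultures. Every root library of jgi|Tercla1|1217116| lay above every culture, while the 2 root groups overlapped.

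Just outside, jgi|Tercla1|1203343| (1316 bases) averaged 252 ± 65.6 CPM in drought roots, 378 ± 72.0 in well-watered roots and 324 ± 46.6 in cultures (SD, n = 3 each), a ratio of 1.502. The next one out, jgi|Tercla1|1272376| (1992 bases), was at 155 ± 14.3, 201 ± 9.04 and 234 ± 11.1 CPM in drought roots, well-watered roots and cultures (SD, n = 3 each). These differences are as large as those of the members just inside, so the edge of the set is set by the limit alone.

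At the level limit, the members with the lowest group means were jgi|Tercla1|352346| (1228 bases), with 100.1 CPM in cultures, and jgi|Tercla1|168821| (2472 bases), with 100.3 CPM in drought roots. Of the gene models kept out by level alone, the nearest were jgi|Tercla1|1250805| (2244 bases), at 99.96 CPM in well-watered roots, and jgi|Tercla1|1277217| (744 bases), at 99.7 CPM in cultures. Their group means differed by 1.42-fold for jgi|Tercla1|1250805| and 1.08-fold for jgi|Tercla1|1277217|.

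Members were spread over a wide range of levels, mostly near the lower end. Group means ran from 100.3 to 2242 CPM in drought roots (median 184), from 100.8 to 2681 in well-watered roots (median 180) and from 100.1 to 2118 in cultures (median 183). By the mean of the 3 groups, 201 members lay between 100 and 200 CPM, 138 between 200 and 500, 17 between 500 and 1000, and 4 above 1000. The share of abundant gene models that were members was smaller at higher levels, at 42.8%, 24.6%, 10% and 4.94%. Above the floor of 100 CPM a wide ratio raises the mean of the groups, and a low mean limits the ratio. The falling share therefore follows in part from the rule. The most abundant member ranked 28th among all gene models in drought roots, 24th in well-watered roots and 25th in cultures.

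In sum the members took 8.52 ± 0.194% of fungal reads in drought roots, 8.75 ± 0.721% in well-watered roots and 8.77 ± 0.0802% in cultures (SD, n = 3 each). The 921 abundant gene models beyond 1.5-fold took 39.8 ± 0.434%, 51.8 ± 1.22% and 50.5 ± 0.519% in the same groups. Both sums follow from the choice of members and carry no test.

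The 4 most abundant members did not have the same pattern. jgi|Tercla1|1214693| (3199 bases) led with 2532, 1229 and 2967 CPM in drought roots, 2353, 2890 and 2800 in well-watered roots and 2237, 2084 and 2034 in cultures. Its drought replicate 2 was the lowest of all 9 libraries, and its other drought libraries lay above every culture, so an even group mean here averaged over unlike replicates. The ratio of group means was 1.27, and 1.47 with TMM, a scaling that corrects for unequal composition of libraries. With DESeq2 size factors, another such scaling, it was 1.53, beyond the limit.

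jgi|Tercla1|1092336|, at 231 bases the shortest member, had 1392, 1037 and 1284 CPM in drought roots, 1181, 1565 and 1631 in well-watered roots and 993, 973 and 978 in cultures. Cultures were lowest and closely grouped, with no overlap with either root group, and the root groups overlapped. The ratio of its group means was 1.49. It was beyond the limit with TMM (1.73), with DESeq2 size factors (1.80) and without well-watered replicate 1 (1.63).

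jgi|Tercla1|1085747| (786 bases) ran the other way, with 1059, 1122 and 919 CPM in drought roots, 1302, 998 and 885 in well-watered roots and 1518, 1450 and 1315 in cultures. Every culture lay above every root library. Without well-watered replicate 1 the ratio of group means was 1.52, beyond the limit.

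The fourth, jgi|Tercla1|1118031| (953 bases), had 873, 935 and 877 CPM in drought roots, 1699, 1179 and 1098 in well-watered roots and 1137, 1056 and 976 in cultures. Drought roots were lowest, and well-watered replicate 1 was far above all other libraries. The ratio of its group means was 1.48 with all libraries and 1.27 without well-watered replicate 1. It went beyond the limit, to 1.56, 1.61 and 1.52, without well-watered replicate 2, well-watered replicate 3 or drought replicate 2. With TMM it was 1.72.

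Members that were even in each single library were fewer than members with even group means. Over all 9 libraries, the ratio of the highest to the lowest CPM of a member had a median of 1.85 and ran from 1.23 to 4.97. Only 34 of the 360 members (9.44%) stayed within 1.5-fold over the 9 libraries, and 238 (66.1%) stayed within 2-fold. Over the 7 libraries other than drought replicate 2 and well-watered replicate 1 the median ratio was 1.62, and 124 members (34.4%) stayed within 1.5-fold. All 9 libraries reached 100 CPM for 273 members. Level was no guide to this evenness, since mean CPM and the ratio over 9 libraries had a Spearman correlation of 0.02 across the 360 members, which share the same libraries.

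The steadiest member was jgi|Tercla1|1268410| (915 bases), with 189, 215 and 208 CPM in drought roots, 214, 200 and 232 in well-watered roots and 192, 191 and 196 in cultures. Its highest library was 1.23 times its lowest, and drought roots overlapped with both other groups. Every well-watered library lay above every culture.

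Next was jgi|Tercla1|1139287| (4842 bases), with 232, 231 and 254 CPM in drought roots, 245, 213 and 218 in well-watered roots and 206, 255 and 234 in cultures. All 3 groups overlapped, and the ratio over 9 libraries was 1.23.

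For jgi|Tercla1|1201047| (2265 bases) the values were 139, 156 and 132 CPM in drought roots, 136, 142 and 129 in well-watered roots and 159, 161 and 153 in cultures. Here cultures were slightly above well-watered roots without overlap, and drought roots overlapped with both.

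Last of these 4, jgi|Tercla1|797086| (1288 bases) had 165, 133 and 152 CPM in drought roots, 168, 169 and 153 in well-watered roots and 150, 133 and 138 in cultures. Its ratio over 9 libraries was 1.27, and well-watered roots lay above every culture. All 4 remained members when any one library was left out.

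The widest members were even in their means only. jgi|Tercla1|1161325| (1269 bases) had 167, 175 and 106 CPM in drought roots, 35.2, 150 and 117 in well-watered roots and 96.0, 94.4 and 113 in cultures. The low value was that of well-watered replicate 1, at 47 reads, and the ratio over 9 libraries was 4.97.

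jgi|Tercla1|1284790| (1658 bases) had 212, 60.1 and 251 CPM in drought roots, 277, 150 and 139 in well-watered roots and 242, 200 and 205 in cultures. Its lowest library was drought replicate 2 and its highest was well-watered replicate 1. Ratios over 9 libraries above 3 were found for 13 members, and in all 13 the highest or the lowest library was drought replicate 2 or well-watered replicate 1.

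**Figure D2:**
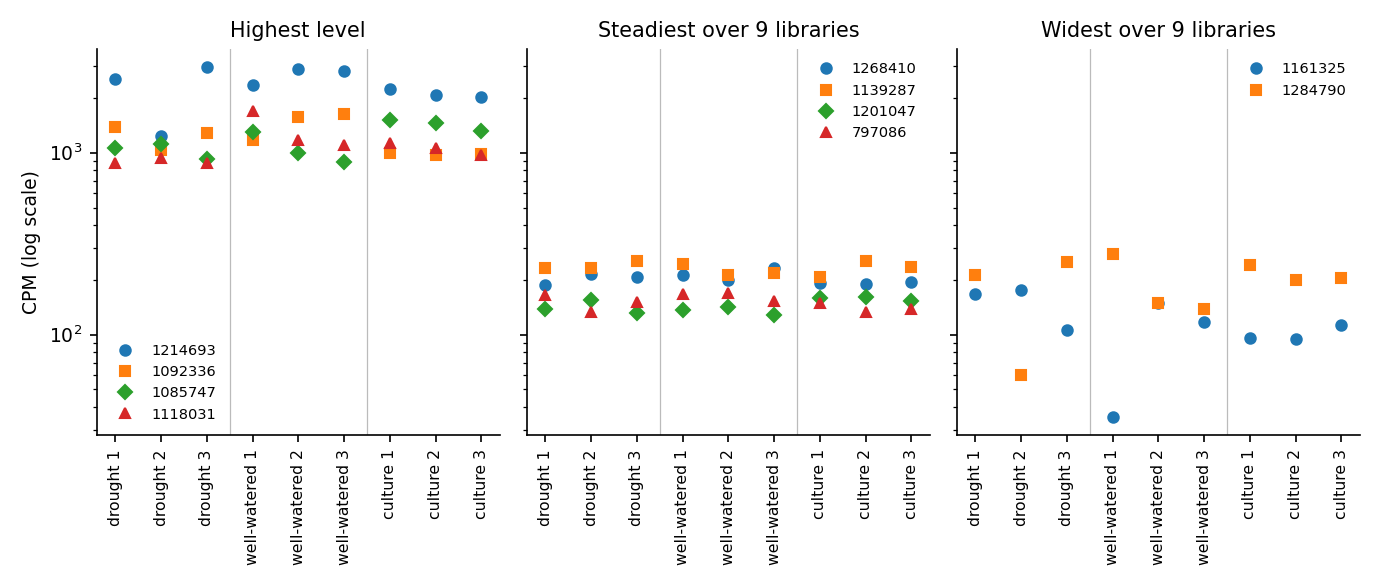
CPM (y axis, log scale) in each of the 9 libraries (x axis, drought roots, well-watered roots, cultures) for the 4 most abundant, the 4 steadiest and the 2 widest members, labelled by the number in their identifier. The steadiest stay between 129 and 255 CPM, while the widest drop to 35.2 CPM in well-watered replicate 1 and to 60.1 CPM in drought replicate 2.

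The spread between replicates was wider in the root groups, and in both it was widest in the pairs that held 1 particular library. Between the 3 replicates of a group, the coefficient of variation (CV) of a member had a median of 16.9% in drought roots, 19.2% in well-watered roots and 6.82% in cultures. Counting error at the depth of these libraries would give medians of 3.72%, 6.97% and 1.52% in the same order, below the observed medians in each group, although depth differed between the groups. With the counting part taken off in quadrature, the medians were 16.3%, 17.6% and 6.63%. Without drought replicate 2 and well-watered replicate 1 each root group has 1 pair of libraries left. In that pair a member differed by a median of 1.13-fold in drought roots and 1.14-fold in well-watered roots, against 1.05-fold to 1.11-fold for the 3 pairs of cultures. The 2 libraries were set aside as the farthest from their replicates, so the pair left is the closest by selection. The closest pair of cultures differed by 1.05-fold. Counting error, larger in the root libraries, was not taken off these folds. Pairs with drought replicate 2 differed by 1.27-fold and 1.30-fold, and pairs with well-watered replicate 1 by 1.33-fold and 1.34-fold. CVs above 50% occurred in 4 members in drought roots, 12 in well-watered roots and 0 in cultures.

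The replicate spread was not itself part of the rule, but the group means were taken over the same replicates. Unlike replicates can carry a group mean beyond the limit, so the choice favours a smaller spread in members. The spread was set beside that of the 921 abundant gene models beyond 1.5-fold. Their median CV was 18.7% in drought roots, 22.3% in well-watered roots and 7.59% in cultures, slightly above that of the members in each group. With the counting part taken off it was 18.3%, 21.5% and 7.47%. In the root pairs without the 2 libraries the order turned, with medians of 1.13-fold for members and 1.12-fold for the 921 in drought roots, and 1.14-fold and 1.12-fold in well-watered roots. Counting error was not taken off these folds and was larger for members. Its median CV was 3.72% against 3.33% in drought roots and 6.97% against 5.76% in well-watered roots. Replicates differed by more than 1.5-fold for 35.6% of members and 44.5% of the 921 in drought roots, for 44.7% and 51.5% in well-watered roots and for 2.78% and 5.97% in cultures. Gene models are not independent replicates and share the libraries, so no test was made of these differences.

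**Figure D3:**
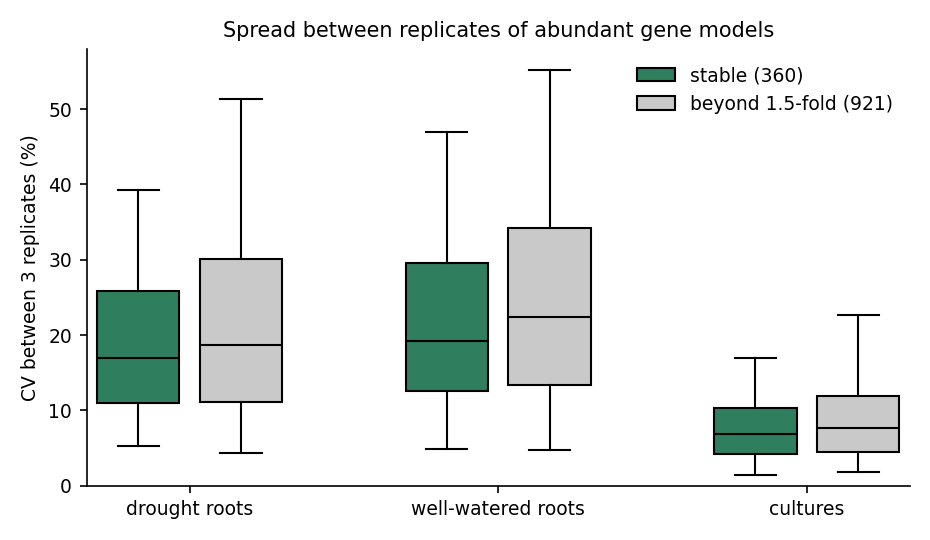
Coefficient of variation between the 3 replicates (y axis, percent) in drought roots, well-watered roots and cultures, for the 360 members and the 921 abundant gene models beyond 1.5-fold. Boxes give the quartiles and median, and whiskers the 5th and 95th percentiles; member medians are 16.9%, 19.2% and 6.82%.

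Among single libraries, well-watered replicate 1 and drought replicate 2 lay farthest from the other replicates of their groups. In drought replicate 2, 89 members (24.7%) differed by more than 1.5-fold from the mean of the other 2 drought libraries, 47 of them higher and 42 lower. In well-watered replicate 1, 112 members (31.1%) did so, 83 higher and 29 lower. Over the 921 other abundant gene models the shares were 35.6% for drought replicate 2 and 41.9% for well-watered replicate 1. In the other libraries the share of members was 4.17% to 9.44% in drought roots, 10% to 13.9% in well-watered roots and 0.278% to 1.94% in cultures.

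These libraries held many of the extreme values. Drought replicate 2 was the highest of the 9 libraries for 81 members and the lowest for 75. Well-watered replicate 1 was the highest for 103 and the lowest for 44, fewer than the 58 and 63 of well-watered replicates 2 and 3. For 256 members (71.1%) at least one extreme was in drought replicate 2 or well-watered replicate 1. Members beyond 1.5-fold in both libraries numbered 36. What sets these libraries apart was not tested.

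**Figure D4:**
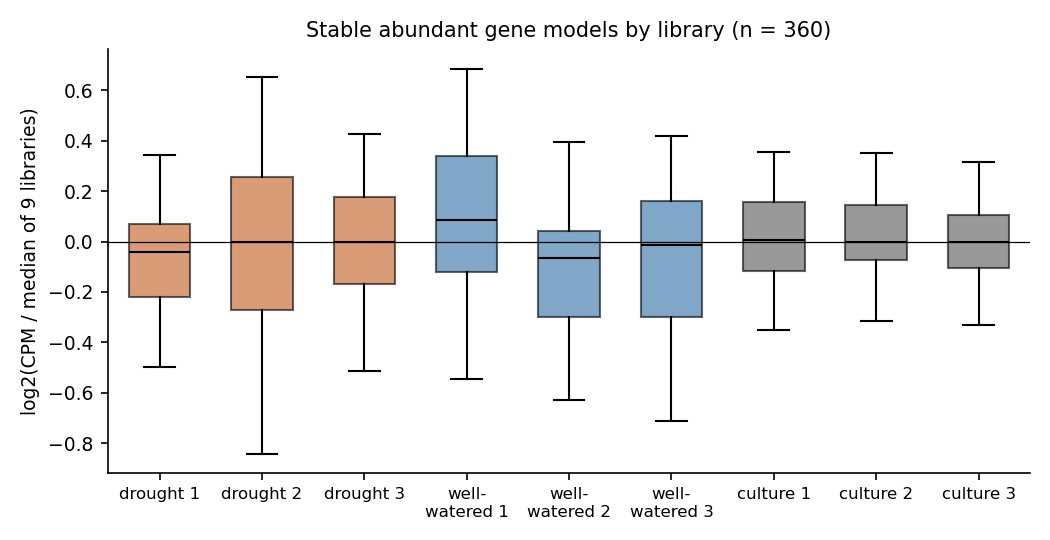
Deviation of the 360 members from their own median over the 9 libraries (y axis, log2 of the CPM ratio) in each library (x axis). Boxes give the quartiles and whiskers the 5th and 95th percentiles; drought replicate 2 and well-watered replicate 1 have the widest spread of members (SD 0.43 and 0.39 on the log2 scale) and the cultures the narrowest (SD 0.19 to 0.22).

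Correlations of the members' levels between groups are raised by the rule, which chose even group means. Across the 360 members, Pearson correlations of log2(CPM + 0.5) between libraries were 0.708 to 0.859 for drought against well-watered roots, 0.813 to 0.869 for well-watered roots against cultures and 0.785 to 0.882 for drought roots against cultures. Within groups they were 0.736 to 0.944 in drought roots, 0.747 to 0.922 in well-watered roots and 0.947 to 0.987 in cultures. The low values within root groups all involve drought replicate 2 or well-watered replicate 1. Without these libraries the correlation was 0.944 in drought roots and 0.922 in well-watered roots, above every value between groups, whose highest was 0.882. The pair left in each root group is the closest by selection. For the 921 other abundant gene models the values between groups were lower by construction, at 0.424 to 0.686, 0.495 to 0.575 and 0.473 to 0.541. These correlations are across genes that share libraries and depth.

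Whether even levels carried over to a library that did not take part in the choice was checked by leaving out each library in turn. The same rule was applied to the other 8 libraries, and the left-out library was then put in the place of its group mean. The share of chosen gene models that stayed within 1.5-fold was 82.1%, 54.6% and 74.1% for drought replicates 1, 2 and 3. For the well-watered replicates in the same order it was 61.0%, 63.6% and 59.8%, and 83.0%, 85.7% and 89.1% for culture replicates 1, 2 and 3. Among all abundant gene models of the same 8 libraries, 21.5% to 28.7% stayed within 1.5-fold. A single library has no averaging over replicates. The levels of the other 2 groups in this check were those used in the choice, which favours the chosen gene models by construction. Against its own group's other replicates, the left-out library was within 1.5-fold for 94.4%, 74.1% and 91.5% of chosen gene models in drought roots. All abundant gene models gave 92.8%, 67.2% and 87.3%. In well-watered roots the shares were 74%, 85.6% and 82.8% against 63.1%, 86.6% and 82.8%. In cultures they were 98.0%, 99.7% and 99.7% against 96.5%, 99.1% and 99.8%.

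**Figure D5:**
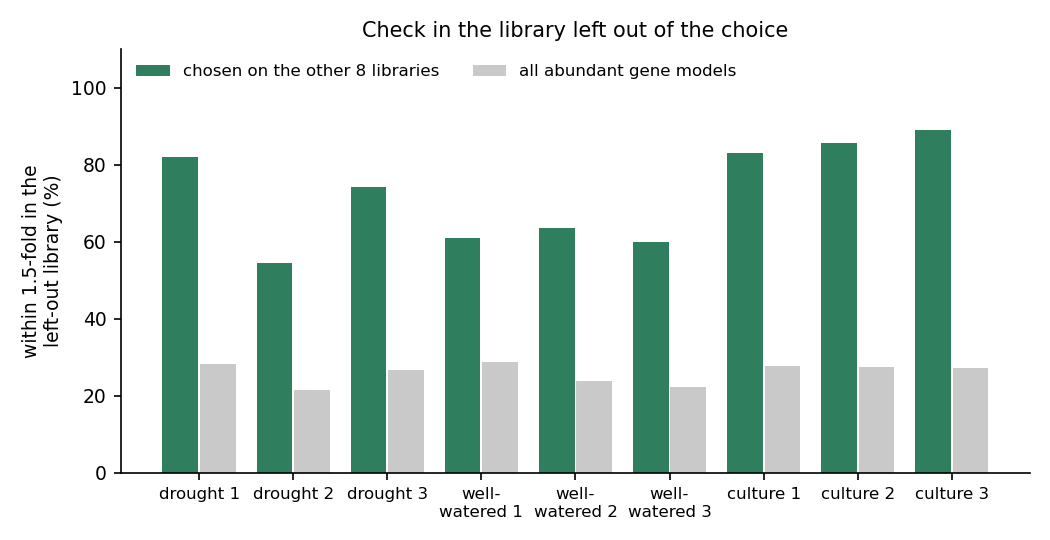
Share of gene models (y axis, percent) within 1.5-fold in the library left out of the choice (x axis), for gene models chosen on the other 8 libraries and for all abundant gene models. The chosen ones reach 54.6% to 89.1% and all abundant ones 21.5% to 28.7%. The levels of the other groups were those used in the choice, which favours the chosen ones by construction.

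Leaving out a library also changed which gene models were chosen. The set numbered 340, 359 and 340 without drought replicates 1, 2 and 3, 300, 390 and 396 when the well-watered replicates were left out in that order, and 352, 350 and 358 when the cultures were. Without well-watered replicate 1, 273 of the 360 members were chosen again, the fewest for any library, and 347 were chosen again without culture replicate 3. A core of 179 members (49.7%) was chosen in all 9 of these sets, and 181 other gene models entered at least one of them. With both drought replicate 2 and well-watered replicate 1 left out, 291 gene models were chosen, 246 of them members.

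The core had a median of 186 CPM and a median ratio of group means of 1.24. It held 100 of the 121 members whose group means were within 25%, 32 of the 34 members within 1.5-fold over the 9 libraries, and 1 of the 13 members beyond 3-fold over the 9 libraries.

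Small differences between groups remained inside the set in all directions. Each of the 6 possible orders of the group means was found, in 50 to 76 members. The mean was highest in drought roots for 102 members, in well-watered roots for 115 and in cultures for 143, and lowest in drought roots for 134, in well-watered roots for 119 and in cultures for 107. The median ratio of means was 0.990 for drought over well-watered roots, 0.978 for well-watered roots over cultures and 0.978 for drought roots over cultures.

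Single members could be well separated between groups in spite of the limit. jgi|Tercla1|1089704| (1914 bases) had 149, 162 and 163 CPM in drought roots, 151, 137 and 146 in well-watered roots and 116, 104 and 101 in cultures. Every root library was above every culture. jgi|Tercla1|1256242| (2148 bases) had 138, 195 and 150 CPM in drought roots, 213, 215 and 191 in well-watered roots and 255, 235 and 231 in cultures. There every root library was below every culture, and drought replicate 2 was within the range of well-watered roots. The part of this that concerns well-watered roots was seen on library totals only, since with TMM the fitted log2 fold change of well-watered roots over cultures was -0.01 ± 0.16 (SE).

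Replicates without overlap were counted over the set and over all gene models tested. Drought roots were above well-watered roots without overlap for 27 members and below for 23, where 25.5% and 17% of 8029 gene models were. Well-watered roots were above cultures without overlap for 53 members and below for 60, where 23.3% and 39.6% of 8919 were. Drought roots were above cultures without overlap for 50 members and below for 75, where 27.2% and 32.4% of 9001 were. The rule limited these differences, so nothing is read from the members' counts.

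All 360 members passed the low-count filter of the edgeR quasi-likelihood fit in each comparison. At a Benjamini-Hochberg adjusted p under 0.05, the fit of drought over well-watered roots called 0 members, against 19.8% of 8029 gene models (9.53% higher and 10.2% lower). In the same edgeR fit 15 of the 360 members had an unadjusted p under 0.05, against 2718 of the 8029 gene models. The DESeq2 Wald test called 9 members lower (2.5%), against 14.1% of all gene models tested, and a joint edgeR fit of all 9 libraries called 22 lower (6.11%), against 15.3%. In well-watered roots over cultures 51 members were called, all higher (14.2% of members), against 48.9% of 8919 gene models (24.4% higher and 24.5% lower). In drought roots over cultures 18 members were called higher and 24 lower, against 43.2% of 9001 gene models (21.4% higher and 21.8% lower). The rule used the same contrasts, so these counts describe the set and nothing is read from them.

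The calls depended on the scale. The fit scales libraries by TMM, which moved the median log2 fold change of all gene models in well-watered roots over cultures to -0.11, against -0.31 when scaled by library totals as in the rule. With library totals 29 members were called (8.06%, against 50.9% of all gene models tested), 13 higher and 16 lower, so the one-sided split was not kept on that scale. For drought over well-watered roots the median of all gene models was 0.08 with TMM and 0.22 with library totals, and that of the members -0.16 and -0.02. The shift between the scales, 0.20 in log2, applies to every level of well-watered roots against cultures given above. With it, the differences of jgi|Tercla1|1201047| and jgi|Tercla1|1256242| between well-watered roots and cultures were no longer seen. The rule applied to TMM-scaled levels chose 353 gene models, 268 of them members, and the steadiest member, jgi|Tercla1|1268410|, then had a ratio of group means of 1.29, against 1.12 on library totals.

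Single libraries moved the calls as well. Without well-watered replicate 1, 121 members (33.6%) were called in well-watered roots over cultures, 89 higher and 32 lower, against 56.8% of all gene models tested. There were 27, 18 and 11 members (7.5%, 5% and 3.06%) when culture replicate 1, 2 or 3 was dropped, against 41.3%, 37.4% and 37.1%. In drought roots over cultures 131 members (36.4%) were called without drought replicate 2, 55 higher and 76 lower, against 60.2% of all gene models tested. With drought replicate 1 left out 19 members (5.28%) were called, against 37.3%, and with culture replicate 1 left out 13 (3.61%), against 31.1%. With culture replicate 2 or 3 left out 0 members were called, against 28.2% and 27.9%.

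The precision of the fits shows how far evenness was measured. The median standard error of a member's log2 fold change was 0.28 for drought over well-watered roots, 0.19 for well-watered roots over cultures and 0.17 for drought roots over cultures. The fitted 95% interval lay within 2-fold either way for 252, 296 and 330 members in these comparisons. It lay within 1.5-fold for 6, 91 and 115 members, and for 2, 88 and 110 when scaled by library totals. The distance from the estimate to the end of the interval was itself within 1.5-fold for 113, 312 and 319 members, so the error was widest between the watering regimes.

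Length was not used by the rule. It was read from the deposited RPKM values, which scale reads to gene model length and to library total. Members had a median length of 1914 bases (quartiles 1203 and 2942, range 231 to 12201). The 921 other abundant gene models had a median of 1658 bases, and all 11241 gene models with a read had 1132. Since CPM is not scaled to length, a limit of 100 CPM is easier to reach for long gene models, and the 1281 abundant ones share that limit. Members of at most 300 bases numbered 2, and 18 members were longer than 5000 bases.

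Per length, members were less abundant than the other abundant gene models. Their mean RPKM over 9 libraries had a median of 99.5 (quartiles 62.3 and 163, range 12.9 to 5307), against a median of 188 (quartiles 95.3 and 396) for the 921. RPKM holds the read levels that the rule used, and a wider ratio above the shared floor raises the mean level. This contrast therefore follows in part from the choice of members. The highest RPKM was that of jgi|Tercla1|1092336|, at 5307. The longest member, jgi|Tercla1|1276407| (12201 bases), had 582, 662 and 688 CPM in drought roots, 675, 620 and 605 in well-watered roots and 429, 839 and 650 in cultures, and a mean RPKM of 52.4. Its group means differed by 1.02-fold although cultures spanned the widest range and enclosed both root groups.

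The files count total and unique reads for each gene model, and reads in the total that are not unique are called shared here. How the counting assigned them is not stated. No read was shared for 325 members (90.3%), against 88.8% of the 921 other abundant gene models. More than 50% of reads were shared for 9 members (2.5%) and 25 of the 921 (2.71%), against 6.33% of all gene models with a read. These 9 levels are uncertain, since the counting could have split reads between near-identical copies. In 3 members every read was shared.

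Of those 3, jgi|Tercla1|1111231| and jgi|Tercla1|1251739| had the same length of 2292 bases and similar levels. The first had 123, 176 and 155 CPM in drought roots, 133, 108 and 117 in well-watered roots and 180, 167 and 176 in cultures. The second had 122, 168 and 145 CPM in drought roots, 138, 117 and 90.8 in well-watered roots and 177, 167 and 174 in cultures. Well-watered roots lay below every culture for both. The third was jgi|Tercla1|607371| (971 bases), at 119 CPM in drought roots and 168 CPM in well-watered roots and in cultures as group means.

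The share of member reads that were not unique was compared over libraries, because the rule used total reads alone. It was 1.89%, 2.31% and 2.02% in drought roots, 1.65%, 1.95% and 1.82% in well-watered roots and 1.93%, 1.88% and 1.94% in cultures. The groups overlapped in each pair. Drought roots differed from well-watered roots by 0.267 percentage points (exact two-sided permutation p = 0.2), well-watered roots from cultures by -0.108 (exact permutation p = 0.4) and drought roots from cultures by 0.159 (exact permutation p = 0.3). Over these 3 comparisons the Benjamini-Hochberg adjusted exact p was 0.4 each, and 3 against 3 libraries cannot give an exact p below 0.1. The test could therefore not pass 0.05 whatever the values. With members chosen on unique reads the differences were 0.0150, 0.0322 and 0.0472 percentage points in the same order, so their size rests on which gene models are in the set. That choice cannot take gene models without a unique read and disfavours those with many shared reads. Smaller differences were therefore partly built into it.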

How the data were processed

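RNA was extracted from 100 mg of tissue per sample and sequenced as read pairs of 75 bases, per the labels. The authors deposited, per the file headers, unique and total gene read counts and RPKM for 12765 gene models. The tools were FastQC, Bowtie2 2.3.0 and SAMtools 1.7, per the submitters' processing notes, with no role stated. The counting program, strand setting and genome build are not given in the sources. Raw total counts were analysed. Deposited RPKM gave the gene lengths: for all 11241 gene models with a read, it came out as one whole number across libraries, within a relative tolerance of 1e-06.

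The members, lists and tests were chosen with earlier results of these data known. Each pair of groups was fitted on all gene models with edgeR 4.0.16 in R 4.3.3 (filterByExpr, TMM, robust dispersions, quasi-likelihood F test, Benjamini-Hochberg adjustment), with DESeq2 1.42.0 as an alternative. The fit was run on simulated counts in which 200 gene models were changed by 2-fold or more, in both directions. That setting held no changes within 1.5-fold and no built-in shift of composition. It therefore does not bear on small differences or on the choice of scale. Fitted standard errors and 95% intervals come from the F statistic. Counting CVs are Poisson and cover counting error only. Single values were compared by exact permutation over libraries. Sources do not say whether replicates came from separate flasks or plants, so p-values measure the spread between these samples.

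Named were the 4 most abundant members, the 4 steadiest and the 2 widest over single libraries, those nearest to each limit on both sides, the shortest and longest, the highest RPKM, the 2 with most shared reads, and the called members with the largest rise and fall. Alternatives covered scaling, filter, limits, counts, depth, fit, replicate block and left-out libraries.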

Additional observations from a re-analysis of the deposited data

How the results depend on the processing

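The set of 360 members kept a similar size, but not the same gene models, with unique gene reads (358, of which 344 were members), TMM (353 and 268), DESeq2 size factors (361 and 263), group medians (337 and 278) and libraries thinned to 869998 reads (352 and 318). It numbered 121 and 769 with the highest group mean at most 25% above, or 2 times, the lowest, 678 and 128 at level limits of 50 and 200 CPM, 1282 with no level limit and 31 when each of the 9 libraries had to meet both limits. Leaving out 1 library gave 300 to 396 members.

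Members called numbered 9, 96 and 77 by the DESeq2 Wald test (drought over well-watered roots, well-watered roots over cultures, drought roots over cultures), against 0, 51 and 42. The Wald calls were 2.5%, 26.7% and 21.4% of members, against 24.9%, 55.9% and 50.8% of all gene models tested. A joint fit of all 9 libraries called 22 members (drought over well-watered roots) and 14 (drought roots over cultures). The joint calls were 6.11% and 3.89% of members, against 27.8% and 39.8% of all gene models tested. With library totals, a scaling added after the data had been seen, 29 members were called in well-watered roots over cultures. That was 8.06% of members, against 50.9% of all gene models tested. Leaving out 1 library gave 0 to 6, 11 to 121 and 0 to 131 members (0% to 1.67%, 3.06% to 33.6% and 0% to 36.4%). The shares of all gene models tested were 10.2% to 20.7%, 37.1% to 56.8% and 27.9% to 60.2%. Over all gene models, 1587, 4359 and 3884 were called; a joint fit called 2420 for drought over well-watered roots, and leaving out 1 library gave 874 to 1747, 2945 to 5317 and 2494 to 5701. Library totals changed the split of all calls from 2176 higher and 2183 lower to 1844 and 2698 in well-watered roots over cultures, and from 765 and 822 to 940 and 686 in drought over well-watered roots.

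Same-numbered libraries did not deviate together in every pair (correlations of -0.05 to 0.13). Between the root groups, same-numbered pairs were at 0.02, 0.05 and 0.09 and the other pairs at -0.07 to 0.002. Correlations this weak cannot settle whether the numbers pair the samples. The numbers come from the sample descriptions, and the sample titles number the libraries differently. No source states a pairing. With the replicate number as a block 0, 41 and 0 members were called (0%, 11.4% and 0%). Over all gene models tested, 1335, 3854 and 3025 were called with the block (16.6%, 43.2% and 33.6%). The difference in shared reads between well-watered roots and cultures turned to 0.0322 percentage points when members were chosen on unique reads. That between drought and well-watered roots was then 0.0150 in place of 0.267, and that between drought roots and cultures 0.0472 in place of 0.159. Smaller differences were partly built into that choice, which disfavours gene models with many shared reads. The median share per member was 0 in every group, which gave differences of 0. Without 1 library the differences were 0.149 to 0.357 (drought minus well-watered roots), -0.177 to -0.0299 (well-watered roots minus cultures) and 0.0408 to 0.249 (drought roots minus cultures). For the 23 named gene models, 256 of 274 alternative values of the fold between group means moved by less than the replicate spread. The other 18 ran from 1.17 to 1.81. The spread was that of each gene model, so a value beyond 1.5-fold could count among the 256. Examples were jgi|Tercla1|1161325| at 1.96 without well-watered replicate 2 and jgi|Tercla1|1092336| at 1.63 without well-watered replicate 1. Leaving out a library of the group in the middle could leave the fold unchanged. The count therefore does not show how many values stayed within the limit. Causes were not tested. Depth limits well-watered roots most, at 869998 to 1635015 total gene reads.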
